A study of Mus musculus with 4 samples.

Results

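Regulatory T cells are CD4 T cells that restrain other lymphocytes, and 8 genes that are widely used to recognise them were followed here among the 31053 genes counted in each library: Foxp3, Ikzf2, Ikzf4, Lrrc32, Gpr83, Capg, Izumo1r and Nt5e. They were chosen by name from the gene table and by no cutoff on a measured value, but with earlier results of these data known. Their counts and ranks below are therefore descriptions. Their unique molecular identifiers (UMIs, each standing for 1 captured RNA molecule) were counted in single-cell barcodes of 4 mouse libraries made with a 5′ droplet kit. The control libraries came from Ocabfl/fl mice, in which the gene Ocab (symbol Pou2af1) is floxed, and the CD4-Cre libraries from Ocabfl/fl.CD4-Cre mice, in which Cre recombinase is driven by the Cd4 promoter. All mice were pre-diabetic females, and the floxed allele was shared by both genotypes. The pancreas libraries each pooled 4 mice of 12 weeks and held leukocytes sorted by flow cytometry for CD45. The pancreatic lymph node libraries each pooled 5 mice of 8 weeks and held T cells separated with magnetic beads against CD3. Each combination of tissue and genotype was 1 library, so there was no replicate, no test was made, and every interval given is 95% and covers counting error only. Tissue, age and selection differed together, so values of the 2 tissues are set side by side and cannot be told apart by tissue alone.

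As background, Foxp3 is the transcription factor that defines the lineage, and loss of its function causes severe autoimmunity in mice and humans. Ikzf2 (Helios) and Ikzf4 (Eos) are zinc finger transcription factors of the Ikaros family, and Eos acts as a co-repressor with Foxp3. Lrrc32 (GARP) holds latent TGF-beta on the cell surface, Gpr83 is a G protein-coupled receptor, Izumo1r (folate receptor 4) is a surface protein, Nt5e (CD73) makes adenosine from AMP, and Capg caps the ends of actin filaments. Regulatory T cells hold back autoimmune attack on the pancreatic islets, which makes their number and identity of interest in pre-diabetic pancreas.

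T cell barcodes had at least 1 UMI of Cd3e or Cd3d. CD4-only barcodes had in addition at least 1 Cd4 UMI and lacked UMIs of Cd8a and Cd8b1, and CD8-only barcodes the reverse. B barcodes had at least 2 UMIs of Cd79a, Cd79b and Ms4a1 together and none of the T cell genes. CD4-only barcodes numbered 913 (pancreas control), 2101 (pancreas CD4-Cre), 1276 (lymph node control) and 2707 (lymph node CD4-Cre), and all values below that are listed 4 at a time follow that order. CD8-only barcodes numbered 446, 679, 703 and 1482. B barcodes numbered 909, 1314, 39 and 0, so only the pancreas had a usable B cell background. The libraries held 3059 to 6963 barcodes and 14851217 to 32798133 UMIs, of which 2853 to 6263 barcodes were kept, and pairs of libraries shared 21 to 70 barcode sequences, at most 1.31% of the smaller library. The median depth of CD4-only barcodes was 3478, 3529, 4541 and 4282 UMIs.

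The genes lie on 6 chromosomes, and positions are given on mouse GRCm38. Foxp3 spans chrX:7573644-7595245 on the plus strand, where it overlaps 4 annotated genes, among them Flicr on the same strand. Ikzf2 spans chr1:69531214-69687245 and Ikzf4 chr10:128630843-128645991, both on the minus strand and both overlapping noncoding genes. Lrrc32 (chr7:98489283-98502181), Capg (chr6:72544391-72562983) and Nt5e (chr9:88327197-88372092) lie on the plus strand without an overlapping gene. Gpr83 (chr9:14860210-14870789, plus strand) and Izumo1r (chr9:14885814-14903949, minus strand) are neighbours, with 15024 bp and no annotated gene between them. How reads in overlapping genes were assigned is not given in the sources used here.

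Promoter windows, from 250 bases before to 50 after the start of transcription in RefSeq (GRCm38.p6), were at hand for 5 of the 8 genes, in 6 windows. Ikzf2, Ikzf4 and Lrrc32 were not in the table used. The first Foxp3 window is shown because every comparison below is anchored on Foxp3, and those of Gpr83 and Izumo1r because these neighbours are both among the genes found together with it. Each is written 5′ to 3′ on the strand of its gene, with the letters TATAAA of a TATA box in capitals.
Foxp3, chrX:7579426-7579725, plus strand: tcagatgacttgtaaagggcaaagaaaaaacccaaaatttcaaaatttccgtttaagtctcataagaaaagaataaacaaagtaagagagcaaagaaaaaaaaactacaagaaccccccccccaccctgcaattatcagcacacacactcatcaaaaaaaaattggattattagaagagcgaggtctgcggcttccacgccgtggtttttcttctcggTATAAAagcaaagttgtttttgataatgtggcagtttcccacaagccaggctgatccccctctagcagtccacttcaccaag
Gpr83, chr9:14859960-14860259, plus strand: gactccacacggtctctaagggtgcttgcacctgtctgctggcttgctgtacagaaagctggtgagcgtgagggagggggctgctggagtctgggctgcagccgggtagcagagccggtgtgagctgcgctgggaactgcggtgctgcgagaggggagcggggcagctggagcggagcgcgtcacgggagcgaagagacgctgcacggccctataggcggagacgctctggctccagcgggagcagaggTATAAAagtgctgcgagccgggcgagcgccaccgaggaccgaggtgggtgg
Izumo1r, chr9:14903718-14904017, minus strand: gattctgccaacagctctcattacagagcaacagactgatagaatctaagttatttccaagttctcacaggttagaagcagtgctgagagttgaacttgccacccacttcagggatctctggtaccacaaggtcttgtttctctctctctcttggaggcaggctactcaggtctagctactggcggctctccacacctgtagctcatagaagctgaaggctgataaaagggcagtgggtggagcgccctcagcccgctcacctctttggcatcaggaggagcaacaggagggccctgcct
TATAAA began 32 bases before the annotated start of Foxp3 and 1 base before that of Gpr83. These were 2 of the 6 windows, while TATAAA on either strand was found in 13.6% of 32851 promoters of this length. The forkhead letters TGTTTAC (3.65% of all promoters), the Runx letters TGTGGTT (5.27%) and the cyclic AMP response element TGACGTCA (1.79%), each on both strands, were in 0 of the 6 windows. The NFAT core GGAAAA (23.4%) was in 1, the second Foxp3 window at chrX:7580233-7580532. The GC content was 40.7% in the first Foxp3 window, 67.0% in that of Gpr83 and 52.3% in that of Izumo1r. A match of letters is a description of the window only.

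Foxp3 was found in a like share of CD4-only barcodes in all 4 libraries and in smaller shares of CD8-only and B barcodes. T cell barcodes with neither a Cd4 nor a Cd8 UMI fall outside these gates. Foxp3 was counted in 4.93%, 4.20%, 9.02% and 13.0% of them, so the CD4-only shares leave out some barcodes with Foxp3. At least 1 Foxp3 UMI was counted in 7.45% (5.83 to 9.35) of CD4-only barcodes of the pancreas control library and in 6.57% (5.55 to 7.71) of those of its CD4-Cre counterpart. The lymph node shares were 7.45% (6.07 to 9.02) for control and 7.76% (6.78 to 8.83) for CD4-Cre. In CD8-only barcodes, which were deeper, with medians of 3815 to 5554 UMIs, the shares were 2.02%, 1.47%, 1.56% and 1.15%, and their intervals lay below those of CD4-only barcodes in each library. In pancreas B barcodes, with median depths of 3564 and 3437 UMIs, Foxp3 was counted in 1 of 909 (0.110%) and in 0 of 1314 barcodes, which allows a share of up to 0.228%. The 39 B barcodes of lymph node control also had none, which allows up to 7.69%. The order was therefore CD4-only, CD8-only and then B barcodes, without overlap of intervals between CD4-only and CD8-only in any library before thinning. At 1000 UMIs per barcode these intervals overlapped in pancreas control (2.51% to 5.06% against 0.367% to 2.61%) and in pancreas CD4-Cre (1.94% to 3.35% against 0.512% to 2.32%). They stayed apart in the lymph node libraries (2.05% to 3.98% against 0.156% to 1.45% and 2.69% to 4.08% against 0.149% to 0.881%). The CD8-only share exceeded that of B barcodes in the pancreas, where its intervals began at 0.927% and 0.708% and those of B barcodes ended at 0.611% and 0.280%. At 1000 UMIs they began at 0.367% and 0.512% and ended at 0.407% and 0.282%, so they overlapped in pancreas control. With at least 3 Cd8 UMIs required, a stricter gate chosen after the data were seen, the CD8-only shares were 1.89%, 1.42%, 0.611% and 0.729%.

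Depth sets how many barcodes show Foxp3. After each barcode was thinned to 1000 UMIs, CD4-only shares were 3.63%, 2.58%, 2.90% and 3.33%, and CD8-only shares 1.13%, 1.18%, 0.571% and 0.406%. As a level, Foxp3 stood at 55.2, 36.9, 45.8 and 41.0 counts per 1000000 UMIs (CPM) over CD4-only barcodes and at 11.1, 8.60, 7.04 and 3.80 CPM over CD8-only barcodes. A barcode with Foxp3 had a median of 2 Foxp3 UMIs in each library and at most 14, 11, 17 and 10.

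The Ikaros factors differed in where else they were found. Ikzf2 was detected in 12.0%, 13%, 8.93% and 8.64% of CD4-only and in 12.8%, 10.8%, 7.11% and 5.06% of CD8-only barcodes. Before thinning, the intervals of the 2 gates overlapped in 3 libraries and lay apart in lymph node CD4-Cre (7.61% to 9.77% against 4.00% to 6.30%). At 1000 UMIs per barcode the CD4-only shares of Ikzf2 were 5.82%, 6.06%, 2.67% and 3.52% against CD8-only shares of 2.70%, 3.25%, 1.57% and 1.35%. It also marked 7.05% and 7.67% of pancreas NK barcodes and only 0.22% and 0.304% of pancreas B barcodes. Ikzf4 was detected in 4.82%, 3.95%, 5.56% and 5.84% of CD4-only and 4.71%, 3.83%, 2.28% and 2.09% of CD8-only barcodes, and in 0 of 909 and 0 of 1314 pancreas B barcodes, which allows up to 0.330% and 0.228%.

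Among the surface proteins, Lrrc32 was detected in 1.31%, 1.29%, 1.02% and 1.81% of CD4-only and in 0.224%, 0.295%, 0.284% and 0.540% of CD8-only barcodes. Gpr83 was detected in 1.64%, 2.38%, 9.40% and 7.43% of CD4-only barcodes, with 0% (0 of 446, which allows up to 0.673%), 0.884%, 4.41% and 3.98% in CD8-only barcodes. Both lymph node values of Gpr83 lay above both pancreas values in each gate, as did its CPM in CD4-only barcodes (5.55, 8.76, 36.5 and 27.5). Izumo1r was detected in 23.8%, 24.3%, 30.9% and 33.0% of CD4-only and in 14.3%, 10.5%, 15.5% and 15.0% of CD8-only barcodes, against 0.440% and 0.304% of pancreas B barcodes. Nt5e was detected in 6.46%, 7.76%, 4.70% and 4.17% of CD4-only and in 6.28%, 7.81%, 3.56% and 2.97% of CD8-only barcodes. Detection of Izumo1r or Nt5e was therefore not limited to CD4 T cells in these libraries.

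Capg, the actin capping gene, was the one gene of the set found more often in pancreas B and myeloid barcodes than in CD4-only barcodes. It was detected in 14.8%, 13.4%, 7.37% and 8.13% of CD4-only and in 19.1%, 15.2%, 2.84% and 1.35% of CD8-only barcodes. In pancreas B barcodes the shares of Capg were 31.4% and 34.6%, and in pancreas myeloid barcodes, which were deeper, 34.8% and 45.9%. Thinned to 1000 UMIs, Capg marked 7.30% and 11.5% of B barcodes against 5.38% and 4.06% of CD4-only barcodes in the pancreas.

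**Figure D1:**
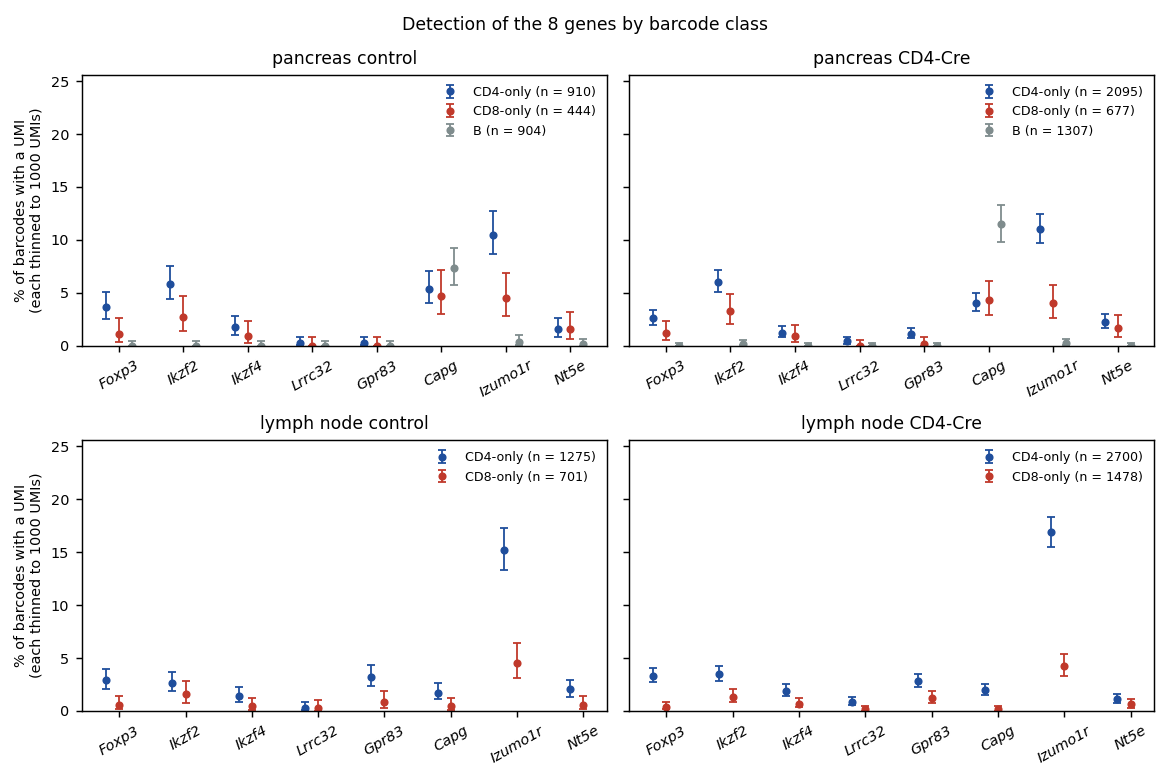
Share of barcodes with at least 1 UMI of each gene (percent, y axis) after thinning each barcode to 1000 UMIs, in CD4-only, CD8-only and, for the pancreas, B barcodes, with exact 95% binomial intervals that cover counting error only. Foxp3 stands at 2.58% to 3.63% of CD4-only and 0.406% to 1.18% of CD8-only barcodes, and Capg at 7.30% and 11.5% of pancreas B barcodes.

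Before thinning, every other gene of the set was more often found in CD4-only barcodes that also held Foxp3. Foxp3-positive barcodes, with at least 1 Foxp3 UMI, numbered 68, 138, 95 and 210, and Foxp3-zero barcodes 845, 1963, 1181 and 2497. Foxp3-positive barcodes were deeper than Foxp3-zero barcodes in the pancreas (medians 4355 against 3471 and 4247 against 3509 UMIs) and shallower in the lymph node (4016 against 4565 and 3827 against 4310 UMIs). The share with a UMI was higher in Foxp3-positive than in Foxp3-zero barcodes for 7 of 7 genes in each library, with an interval of the difference above 0 in all 28 cases. After thinning to 1000 UMIs, which left 33, 54, 37 and 90 Foxp3-positive barcodes, the interval of the difference lay above 0 for 4, 5, 6 and 7 of the 7 genes. In pancreas control the direction then turned for Lrrc32 and Gpr83, each found in 0 of 33 Foxp3-positive and 2 of 877 Foxp3-zero barcodes. Differences of shares were not computed over all genes, so no background stands beside these counts.

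Ikzf2 was found in 77.9%, 84.8%, 53.7% and 51.0% of Foxp3-positive barcodes, against 6.75%, 8.00%, 5.33% and 5.09% of Foxp3-zero barcodes. Its log2 ratios of CPM between the 2 kinds of barcode were 3.61 (3.30 to 3.92), 3.62 (3.41 to 3.83), 4.00 (3.65 to 4.34) and 3.73 (3.49 to 3.98). Before thinning, Ikzf2 was thus present in a larger share of Foxp3-positive barcodes in both pancreas libraries than in both lymph node libraries. These intervals did not overlap (from 66.2% to 90.3% in the pancreas and from 43.2% to 64.0% in the lymph node). After thinning, the shares were 45.5% (28.1 to 63.6), 48.1% (34.3 to 62.2), 35.1% (20.2 to 52.5) and 25.6% (16.9 to 35.8). The order of the tissues stayed, but the pancreas intervals then overlapped those of the lymph node. Ikzf4 was found in 38.2%, 33.3%, 32.6% and 28.1% of Foxp3-positive and 2.13%, 1.88%, 3.39% and 3.96% of Foxp3-zero barcodes, with log2 ratios of 3.93, 3.93, 3.51 and 3.01.

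Lrrc32 was found in 11.8%, 8.70%, 10.5% and 16.7% of Foxp3-positive barcodes and in 0.473%, 0.764%, 0.254% and 0.561% of Foxp3-zero barcodes. Its log2 ratios, from 20, 37, 16 and 74 UMIs, were 2.93 (1.51 to 4.35), 3.04 (2.02 to 4.05), 5.47 (3.61 to 7.93) and 5.30 (4.50 to 6.17). Gpr83 was found in 8.82%, 11.6%, 42.1% and 37.6% of Foxp3-positive and 1.07%, 1.73%, 6.77% and 4.89% of Foxp3-zero barcodes. The log2 ratios of Gpr83 were 3.07 (1.69 to 4.46), 1.98 (1.20 to 2.72), 2.93 (2.54 to 3.32) and 3.45 (3.13 to 3.77). The interval of lymph node CD4-Cre lay above that of pancreas CD4-Cre. Izumo1r was found in 75.0%, 73.2%, 87.4% and 89.0% of Foxp3-positive and 19.6%, 20.9%, 26.3% and 28.3% of Foxp3-zero barcodes, with log2 ratios of 2.38, 2.12, 2.43 and 2.55.

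Nt5e was found in 13.2%, 29.0%, 29.5% and 18.1% of Foxp3-positive and 5.92%, 6.27%, 2.71% and 3.0% of Foxp3-zero barcodes. The log2 ratio of Nt5e was 0.47 (-0.67 to 1.45) in pancreas control, an interval that includes 0. That value ran from 0.19 to 0.95 under all alternatives but 1, barcodes gated after thinning, where it was 3.18. The ratio was 1.76 (1.28 to 2.22), 3.29 (2.66 to 3.93) and 2.90 (2.39 to 3.40) in the other 3 libraries. Capg was found in 52.9%, 62.3%, 42.1% and 35.2% of Foxp3-positive and 11.7%, 9.98%, 4.57% and 5.85% of Foxp3-zero barcodes, with log2 ratios of 2.02, 2.64, 3.80 and 3.06.

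**Figure D2:**
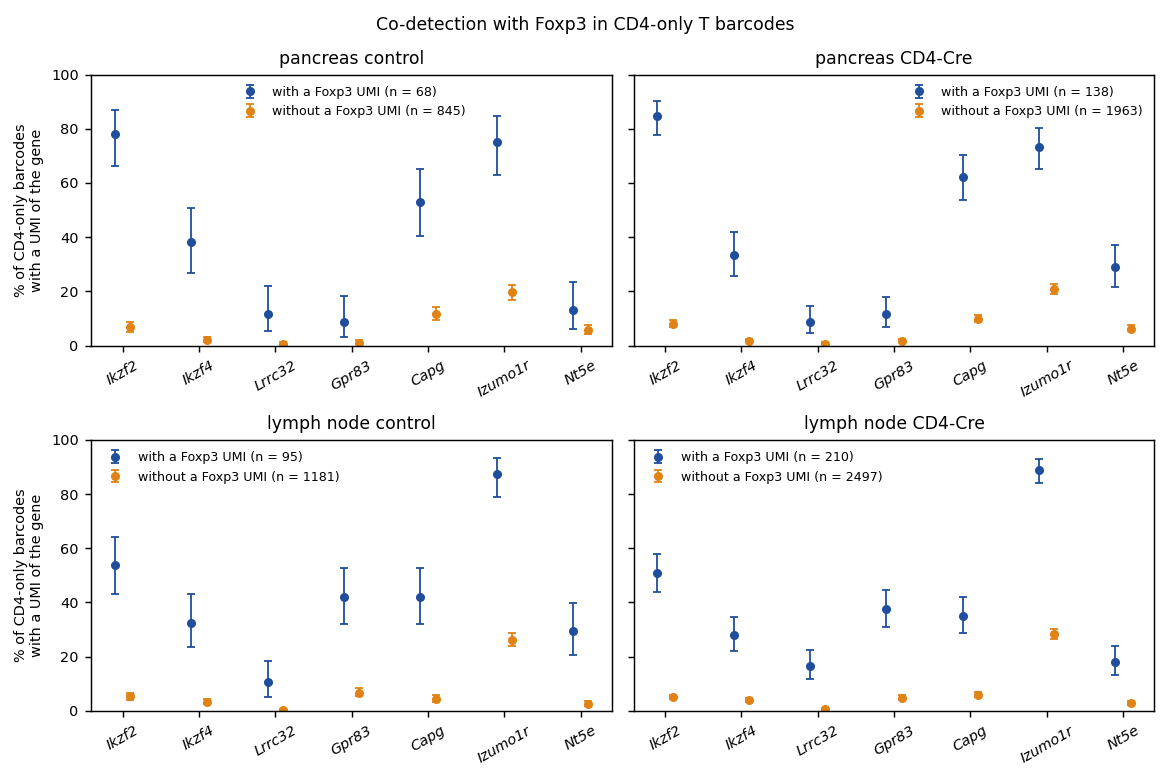
Share of CD4-only barcodes with a UMI of each gene (percent, y axis), in Foxp3-positive and Foxp3-zero barcodes of each library, with exact 95% binomial intervals. Before thinning, as shown, each of the 7 genes stands higher in Foxp3-positive barcodes in all 4 libraries, with the smallest gap for Nt5e in pancreas control (13.2% against 5.92%).

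Set beside all genes with at least 20 UMIs in these barcodes, the members stood high. At least 2-fold higher CPM in Foxp3-positive barcodes was seen for 6 of 7 members in pancreas control, where 11.3% of 9017 genes were called, and for 7 of 7 in pancreas CD4-Cre, where 10.6% of 10163 genes were. It was seen for 6 of 6 in lymph node control (8.91% of 9279 genes), where Lrrc32 had under 20 UMIs, and for 7 of 7 in lymph node CD4-Cre (8.65% of 9834 genes). The median log2 ratio of the members was 2.93, 2.64, 3.40 and 3.06, against 0.18, 0.20, 0.10 and 0.15 over all genes. TMM library sizes moved all log2 ratios of this comparison by -0.28, -0.28, -0.19 and -0.22, which changed none of these member counts. Gating the barcodes after thinning lowered the counts to 3, 4, 3 and 5 members, since fewer genes then had 20 UMIs.

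In the other direction, a UMI of a member did not mean that Foxp3 was also counted. Foxp3 was present in 66.7%, 44.4%, 76.9% and 71.4% of CD4-only barcodes with Lrrc32 and in 48.2%, 42.7%, 44.7% and 45.7% of those with Ikzf2. It was present in 59.1%, 55.4%, 43.7% and 37.3% of barcodes with Ikzf4, in 40.0%, 32.0%, 33.3% and 39.3% of those with Gpr83, and in 26.7%, 30.5%, 42.6% and 33.6% of those with Capg. The share was 23.5%, 19.8%, 21.1% and 20.9% for Izumo1r and 15.3%, 24.5%, 46.7% and 33.6% for Nt5e. At these depths a barcode without a Foxp3 UMI may still express Foxp3, so these shares are lower limits for expression in the cell.

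The genes were also found together pair by pair. All 28 pairs of the 8 genes shared more CD4-only barcodes than the product of their shares gives, in each of the 4 libraries, and the interval of the ratio lay above 1 for 22, 27, 28 and 28 pairs. The median ratio of observed to expected barcodes was 3.53, 3.47, 4.62 and 4.32. All pairs share the depth of their barcodes, since a deeper barcode is more likely to hold any gene. The ratio was not computed for pairs of other genes, so no background stands beside these counts of pairs. The highest ratio was that of Ikzf4 with Lrrc32 in pancreas control (10.4, 3.81 to 22.6), pancreas CD4-Cre (9.38, 4.50 to 17.2) and lymph node control (12.4, 5.69 to 23.6), and that of Foxp3 with Lrrc32 in lymph node CD4-Cre (9.21, 6.41 to 12.8). The lowest were Foxp3 with Nt5e (2.05), Gpr83 with Nt5e (1.80), Gpr83 with Izumo1r (2.37) and Capg with Izumo1r (2.23). The neighbours Gpr83 and Izumo1r thus had the lowest ratio in lymph node control. The ratio is bounded by how common the more frequent gene of a pair is. Izumo1r was in 30.9% of CD4-only barcodes of that library, so its ratios could not rise as far as those of rarer genes. The order of ratios is therefore not an order of how closely pairs were joined. Within Foxp3-zero barcodes alone, 20, 20, 19 and 21 of the 21 pairs without Foxp3 remained above expectation, with median ratios of 3.76, 3.25, 3.42 and 4.37.

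**Figure D3:**
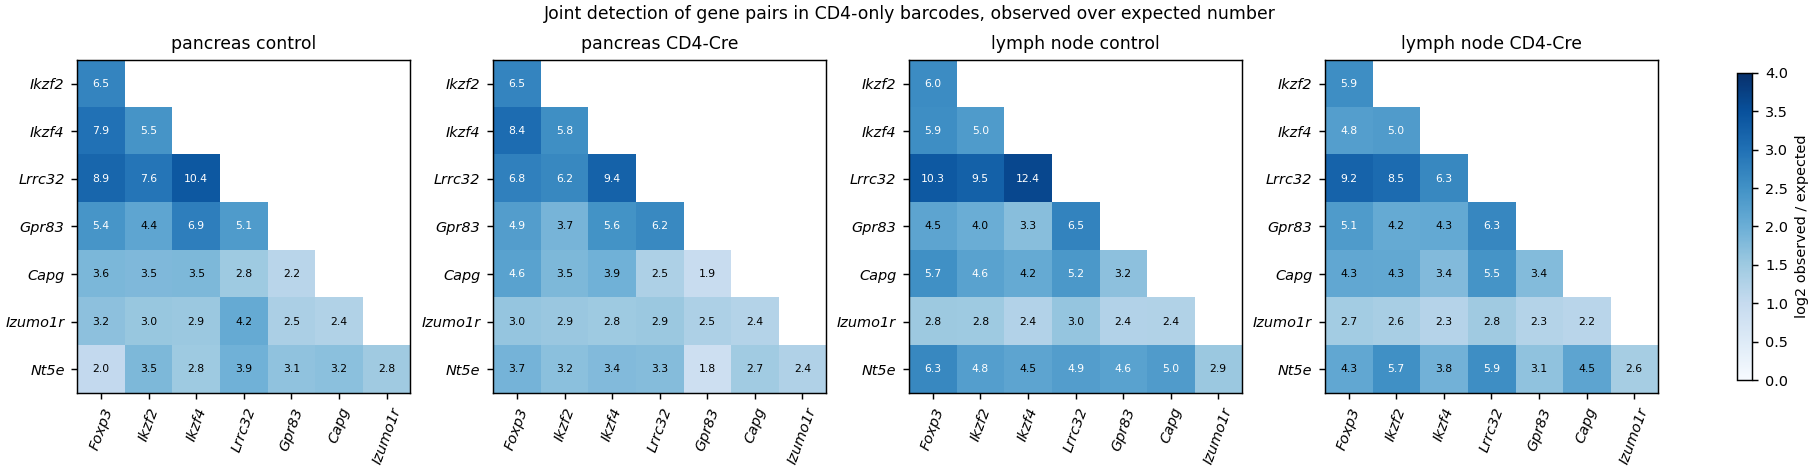
Observed over expected number of CD4-only barcodes that hold both genes of each pair, for the 28 pairs of the 8 genes in each library (printed ratio, with colour on a log2 scale). All ratios lie above 1, and the highest, 12.4, is that of Ikzf4 with Lrrc32 in lymph node control.

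The more of the other 7 genes a barcode held, up to 4, the more often Foxp3 was counted in it. With none of the 7, Foxp3 was counted in 0.840% (5 of 595), 0.148% (2 of 1348), 0.755% (6 of 795) and 0.546% (9 of 1647) of CD4-only barcodes. With 1 of the 7 the share was 4.73%, 3.26%, 5.07% and 6.39%, and with 2 it was 20.3%, 17.4%, 18.9% and 23.8%. With 3 it was 41.7%, 41.0%, 34.8% and 38.1%, and with 4 it was 60.9%, 63.2%, 67.6% and 58.4%. Beyond 4 the groups were small and the order broke in places, with 5 of 5 at 5 genes and 2 of 4 at 6 in pancreas control, and 0 of 1 at 7 in pancreas CD4-Cre. Foxp3-positive barcodes held a median of 3 of the 7 genes and Foxp3-zero barcodes a median of 0 in every library.

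**Figure D4:**
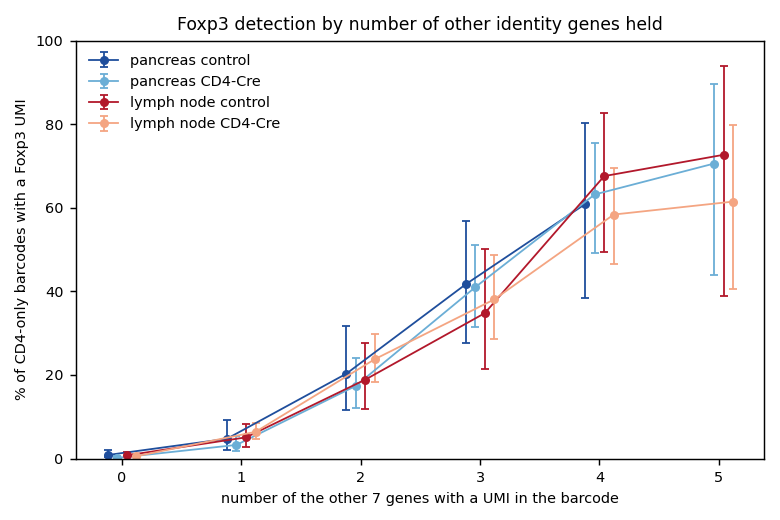
Share of CD4-only barcodes with a Foxp3 UMI (percent, y axis) by the number of the other 7 genes that the barcode held (x axis), with exact 95% binomial intervals, for points of at least 10 barcodes. The share goes from 0.148% to 0.840% with none of the 7 genes to 58.4% to 67.6% with 4 of them.

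A group of barcodes held at least 3 of the 7 genes without a Foxp3 UMI. At least 3 of the 7 genes were found in 60.3%, 67.4%, 57.9% and 51.4% of Foxp3-positive barcodes and in 4.62% (39), 4.53% (89), 3.73% (44) and 4.12% (103) of Foxp3-zero barcodes. The same was true of 4.04%, 3.68%, 2.42% and 1.62% of CD8-only barcodes and of 1 barcode in each pancreas B gate (0.110% and 0.0761%). The Foxp3-zero barcodes with at least 3 genes were deeper than those with 0 to 2, with medians of 4813 against 3444, 4597 against 3486, 5415 against 4544 and 4481 against 4306 UMIs. The 2 groups are compared next on genes that did not define them.

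Foxp3-zero barcodes with at least 3 of the 7 genes also had more of several regulatory T cell genes outside the set. Il2ra, the high-affinity interleukin 2 receptor chain, was detected in 20.5%, 14.6%, 27.3% and 24.3% of them, in 0.868%, 1.60%, 2.11% and 1.21% of those with 0 to 2, and in 42.6%, 26.8%, 40.0% and 40.0% of Foxp3-positive barcodes. Its log2 ratios of CPM between the first 2 groups were 3.73 (2.39 to 5.10), 2.76 (1.99 to 3.49), 4.22 (3.49 to 4.94) and 3.79 (3.15 to 4.41). The inhibitory receptor Ctla4 had log2 ratios of 2.28, 2.74, 4.61 and 3.97 and the costimulatory receptor Tnfrsf4 of 3.31, 3.20, 3.42 and 3.49. Nrp1, a surface protein of thymus-derived regulatory T cells, had 1.62, 1.53, 4.34 and 4.44. The checkpoint receptors Lag3 (3.83, 3.32, 3.45 and 4.25), Pdcd1 (2.76, 2.48, 3.57 and 3.19) and Tigit (3.02, 3.40, 4.66 and 3.27) were higher as well. Genes of naive and recirculating T cells were lower, with log2 ratios of -1.79, -1.92, -1.72 and -1.99 for Il7r, the interleukin 7 receptor chain, and -1.15, -1.16, -1.19 and -1.05 for Klf2. Gata3 had 0.13, 0.68, 0.30 and 0.17. Pdcd1 stood at 299, 281, 297 and 178 CPM in the barcodes with at least 3 genes, above the 81.9, 101, 74.3 and 88.2 CPM of Foxp3-positive barcodes. Il2ra stood below them, at 43.2, 45.2, 121 and 69.3 against 193, 136, 212 and 217 CPM. Whether these barcodes belonged to regulatory T cells was not tested.

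Izumo1r and Nt5e together are used as surface markers of anergic CD4 T cells as well as of regulatory T cells, so their joint detection was taken from Foxp3-zero barcodes. Both were found in 30, 65, 26 and 62 of these barcodes. That was 3.05 (2.06 to 4.36), 2.53 (1.95 to 3.22), 3.09 (2.02 to 4.52) and 2.92 (2.24 to 3.74) times the number expected from their shares. After thinning to 1000 UMIs the ratios were 3.46 (0.943 to 8.86), 2.43 (1.17 to 4.47), 4.83 (2.76 to 7.84) and 4.43 (2.53 to 7.19). The 877, 2041, 1238 and 2610 barcodes behind these ratios include some whose Foxp3 UMIs were lost in thinning. Among barcodes with no Foxp3 UMI before thinning, a setting added after the data were seen, the ratios at 1000 UMIs were 3.61 (0.744 to 10.5), 2.72 (1.17 to 5.36), 4.59 (1.98 to 9.05) and 5.0 (2.50 to 8.95), from 3, 8, 8 and 11 barcodes with both. The interval includes 1 in pancreas control and lies above 1 in the other libraries.

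Barcodes with both genes stood far from those with neither in checkpoint genes. Shares for these groups were taken before thinning, and a deeper barcode is more likely to hold any gene. Lag3, an inhibitory receptor for MHC class II, was detected in 63.3%, 60.0%, 38.5% and 45.2% of barcodes with both and in 2.12%, 2.01%, 0.463% and 0.563% of those with neither. Its log2 ratios were 5.48 (4.90 to 6.09), 5.70 (5.32 to 6.09), 7.59 (6.35 to 9.11) and 6.97 (6.35 to 7.65), from 113 to 32, 243 to 74, 43 to 6 and 138 to 25 UMIs. Pdcd1 was detected in 36.7%, 46.2%, 46.2% and 40.3% of barcodes with both and in 5.01%, 5.02%, 2.43% and 2.19% of those with neither. Tigit (3.78, 4.00, 5.40 and 6.09) and Ctla4 (3.19, 3.55, 5.10 and 5.51) had log2 ratios of like direction. Genes linked to anergy were not alike. The transcription factor gene Egr2 had 3.0 (2.09 to 3.87), 3.92 (3.28 to 4.55), 2.48 (1.60 to 3.27) and 2.22 (1.55 to 2.84). The ubiquitin ligase gene Cblb had -0.34 (-1.24 to 0.43), -0.33 (-0.94 to 0.23), 0.30 (-0.78 to 1.20) and 1.09 (0.48 to 1.64), with an interval above 0 only in lymph node CD4-Cre. Egr3 had 0.85, 3.35, 1.25 and -1.05, and its interval lay above 0 only in pancreas CD4-Cre (2.11 to 4.53). Il7r was lower in barcodes with both, at -2.12, -0.96, -1.31 and -1.39. Ikzf2 was detected in 36.7%, 38.5%, 30.8% and 41.9% of barcodes with both and in 2.43%, 2.74%, 1.39% and 1.35% of those with neither. Whether these barcodes belonged to regulatory T cells whose Foxp3 was missed or to other cells was not tested.

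Foxp3-positive barcodes with and without an Ikzf2 UMI differed in a few genes. The Ikzf2-positive barcodes numbered 53, 117, 51 and 107 and the Ikzf2-zero barcodes 15, 21, 44 and 103, and the former were deeper, with medians of 5106 against 3326, 4493 against 3052, 4445 against 4015 and 4071 against 3561 UMIs. Nrp1 was higher with Ikzf2 in the lymph node libraries, at 2.22 (0.97 to 3.74) and 2.22 (1.32 to 3.24). In the pancreas libraries Nrp1 was at -0.68 (-1.82 to 0.65) and -0.49 (-1.41 to 0.58), with intervals that include 0. Capg had 1.56, 0.49, 1.43 and 0.75, with an interval that includes 0 only in pancreas CD4-Cre, and Izumo1r had 0.37, -0.37, 0.46 and 0.52. Foxp3 itself was at -0.55 (-1.07 to -0.01), -0.35 (-0.83 to 0.17), 0.41 (0.05 to 0.78) and 0.02 (-0.24 to 0.28). The pancreas values rest on 15 and 21 Ikzf2-zero barcodes.

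Among genes outside the set, those most like Foxp3 were ranked by the lowest of their 4 log2 ratios of Foxp3-positive over Foxp3-zero barcodes, over 8518 genes with 20 UMIs in every library. Il2ra came first, with 4.88, 3.87, 4.16 and 4.72. Rln3, which encodes the peptide hormone relaxin 3, had 3.16, 4.62, 5.54 and 4.14, from 20 to 81 UMIs in Foxp3-positive barcodes. Ctla4 had 2.93, 2.92, 3.46 and 3.77 and Tnfrsf4 had 3.17, 2.88, 2.87 and 3.38. Fam129a, the linker histone gene Hist1h1b, the integrin gene Itgae (CD103), Epcam, Ncmap and the replication licensing inhibitor Gmnn followed, with lowest ratios from 2.67 down to 2.36. In the same ranking Ikzf2 stood at 2, Ikzf4 at 4, Izumo1r at 21, Capg at 24, Gpr83 at 27 and Nt5e at 513, while Lrrc32 was too sparse in lymph node control to be ranked. The value of Hist1h1b was -0.15 in pancreas control when 2 Foxp3 UMIs were required, 0.37 in lymph node control without B or myeloid UMIs, and 1.32 in pancreas CD4-Cre with the doublet rate doubled. Ncmap was 0.69 in lymph node CD4-Cre when 2 Foxp3 UMIs were required.

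Of 25 other regulatory T cell genes, 20 of 22, 22 of 23, 16 of 19 and 18 of 20 with enough UMIs were at least 2-fold higher in Foxp3-positive barcodes, and 0 were 2-fold lower, with median log2 ratios of 2.30, 2.05, 2.71 and 2.71. Tnfrsf9, an activation-induced costimulatory receptor, had 3.76, 3.93, 2.30 and 3.10, and Itgae, which binds E-cadherin, had 4.74, 4.75, 4.94 and 2.55. Il10, the suppressive cytokine, had 3.92 in pancreas CD4-Cre. In pancreas control Il10 was at 4.51 (2.79 to 6.60), but its 12 and 4 UMIs fell short of the minimum of 20. Gata3, at 0.21, 0.57, 0.63 and 0.91, stayed below 2-fold in all 4 libraries.

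Of 16 partners and regulators of Foxp3, only Ikzf3 (Aiolos), another Ikaros factor, was at least 2-fold higher, at 1.57, 1.28, 1.06 and 1.21. At least 2-fold lower were 6, 5, 2 and 3 of the 16. The share of all genes called lower was not computed for Foxp3-positive over Foxp3-zero barcodes. No background therefore stands beside counts of lower genes in any list. Lef1 (-2.26, -1.71, -1.32 and -1.34), Satb1 (-1.69, -1.72, -1.33 and -1.16) and Tcf7 (-1.65, -1.61, -0.98 and -1.01), transcription factors of naive and early T cells, had the lowest ratios common to the libraries. Ikzf1 (Ikaros) was at -1.44, -1.11, -0.77 and -0.59. Ikaros family genes thus lay on both sides of 0 in the same barcodes.

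The list for display of TGF-beta by Lrrc32 had 2 of 4, 2 of 4, 1 of 3 and 1 of 3 genes at least 2-fold higher, with medians of 1.41, 0.99, 0.45 and 0.69. Itgb8 and Itgav encode the integrin chains that release TGF-beta from GARP, and their log2 ratios were 3.38 and 2.81 in the pancreas libraries for Itgb8 and 1.89, 1.20, 1.56 and 1.04 for Itgav. Itgb8 had too few UMIs in the lymph node (9 and 12) for the minimum of 20. The ligand gene Tgfb1 itself was at 0.93, 0.46, 0.12 and 0.41. In the adenosine list, with 1 of 6, 1 of 6, 0 of 5 and 1 of 5 genes at least 2-fold higher and medians of 0.85, 0.26, 0.57 and 0.44, Entpd1 (CD39), which makes the substrate of CD73, was at 1.48 and 1.45 in the pancreas, and had only 13 and 17 UMIs in the lymph node. The adenosine receptor gene Adora2a was at 0.95, 0.87, 0.82 and 0.53.

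All 5 naive and homing genes had intervals below 0 in all 4 libraries, among them Il7r at -2.24, -1.80, -1.70 and -1.82 and the chemokine receptor gene Ccr7 at -1.38, -1.34, -0.32 and -0.32. Of the conventional helper genes, 0 of 5, 0 of 5, 1 of 5 and 1 of 6 were at least 2-fold higher and 2, 1, 1 and 1 lower, with medians of -0.79, -0.33, -0.14 and 0.47. No share over all genes stands beside these lower counts or beside the intervals below 0 of the naive and homing genes. Cd40lg, which helps B cells, was at -1.69, -2.20, -1.36 and -1.03. Il2 had 0 UMIs in Foxp3-positive barcodes of all 4 libraries and only 10, 12, 34 and 29 in Foxp3-zero barcodes, and Il17a had 0 in both, so these zeros show no difference. The anergy and exhaustion list had 4 of 10, 2 of 10, 3 of 9 and 7 of 9 genes at least 2-fold higher, with medians of 0.65, 0.51, 0.81 and 1.29, and Lag3 was at 2.11, 2.13, 2.35 and 1.45.

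Markers of other cells were not evenly spread over these barcodes. T cell markers had medians of 0.16, 0.26, 0.08 and 0.11. Myeloid markers were at least 2-fold higher in Foxp3-positive barcodes for 5 of 5 genes in pancreas control, where they made up 0.622% of UMIs against 0.166% in Foxp3-zero barcodes, and for 1 of 5 in pancreas CD4-Cre (0.225% against 0.129%). In the lymph node the myeloid genes Lyz2, Csf1r, Itgam and Tyrobp were at 0 in Foxp3-positive barcodes. B cell markers made up 0.00341%, 0.0200%, 0.00230% and 0.00114% of UMIs in Foxp3-positive barcodes and 0.00580%, 0.0159%, 0.00121% and 0.000274% in Foxp3-zero barcodes, with Ms4a1 at 0 in Foxp3-positive barcodes of all libraries but pancreas CD4-Cre. Plasma cell markers made up at most 0.00740% and NK markers at most 0.00341% of UMIs in Foxp3-positive barcodes. Without barcodes that held a UMI of Cd79a, Cd79b, Ms4a1, Lyz2 or Csf1r, 4, 7, 6 and 7 members remained at least 2-fold higher. These genes are meant wherever barcodes with B or myeloid UMIs are left out. Barcodes with UMIs of the myeloid markers Cst3, Itgam or Tyrobp alone stayed in. In pancreas control Lrrc32 and Gpr83 lie near the minimum of 20 UMIs, with 20 and 21 before that removal. Nt5e stayed below 2-fold there.

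The targeted gene was checked first for the comparison of genotypes. Pou2af1 was counted in lymph node CD4-only barcodes at 6.45 CPM (41 UMIs) in control and 0.0814 CPM (1 UMI) in CD4-Cre, and in lymph node CD8-only barcodes with 16 and 0 UMIs. In pancreas CD8-only barcodes it was at 8.31 and 1.15 CPM, a log2 ratio of -2.86 (-4.88 to -1.26). In pancreas CD4-only barcodes it was at 7.40 and 5.65 CPM, a log2 ratio of -0.39 (-1.09 to 0.33) that does not by itself show the label. In that gate, markers of plasma cells, which express Pou2af1, made up 0.00980% of UMIs in control and 0.0377% in CD4-Cre, and B cell markers 0.00552% and 0.0163%. Without barcodes that held a B or myeloid UMI the log2 ratio of Pou2af1 was -3.75. B barcodes, where Cre is not expected from this promoter, had 220 and 240 CPM of Pou2af1.

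The shares of CD4-only barcodes with Foxp3 did not separate the genotypes. In the pancreas the share differed by -0.880 percentage points (-3.01 to 1.03), CD4-Cre minus control, and by -1.05 points (-2.59 to 0.240) at 1000 UMIs per barcode. In the lymph node the differences were 0.313 (-1.52 to 2.01) and 0.431 points (-0.804 to 1.52). The level of Foxp3 over all pancreas CD4-only barcodes was lower in CD4-Cre, at 36.9 against 55.2 CPM, a log2 ratio of -0.58 (-0.84 to -0.32). The ratio was -0.32 with equal weight for each barcode and -0.02 when barcodes were gated after thinning. In the lymph node the log2 ratio of Foxp3 was -0.16 (-0.37 to 0.06). Myeloid markers made up 0.219% of UMIs in CD4-only barcodes of pancreas control and 0.138% of those of pancreas CD4-Cre. Without barcodes that held a B or myeloid UMI the pancreas ratio of Foxp3 was -0.53.

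Most other members had log2 ratios near 0 between genotypes. In pancreas CD4-only barcodes 0 of 8 members were at least 2-fold higher, where 1.82% of 10682 genes were, and 0 of 8 lower, where 1.75% were. Ikzf2 (-0.15), Ikzf4 (-0.26), Lrrc32 (-0.31), Capg (-0.0044), Izumo1r (0.01) and Gpr83 (0.66, -0.05 to 1.43) had intervals that include 0. Nt5e had 0.46 (0.05 to 0.89), from 17.2 to 23.6 CPM. In lymph node CD4-only barcodes 1 of 8 members was at least 2-fold higher (0.635% of 10387 genes) and 0 of 8 lower (2.21%). That member was Lrrc32, at 2.52 and 6.03 CPM from 16 and 74 UMIs, a log2 ratio of 1.26 (0.47 to 2.14) that was 0.36 with a pseudocount of 10 CPM, which ends the call. Gpr83 was lower in lymph node CD4-Cre, at 36.5 and 27.5 CPM, a log2 ratio of -0.41 (-0.65 to -0.16), while Ikzf2 (-0.05), Ikzf4 (-0.07), Capg (0.03), Izumo1r (0.02) and Nt5e (-0.24, -0.63 to 0.16) had intervals that include 0.

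Within Foxp3-positive barcodes, 1 of 8 members passed 2-fold in each tissue, and it was a different one. In the pancreas it was Nt5e, at 22.8 CPM (10 UMIs) in control and 65.4 CPM (53 UMIs) in CD4-Cre. Its log2 ratio was 1.52 (0.53 to 2.66), and 3.98% of 6703 genes were called higher there. Capg was at 232 and 324 CPM there, a log2 ratio of 0.48 (0.15 to 0.83). In the lymph node it was Lrrc32, at 23.0 CPM (13 UMIs) and 59.2 CPM (57 UMIs), a log2 ratio of 1.36 (0.48 to 2.36), where 2.39% of 6808 genes were. No member was 2-fold lower, where 3.28% and 3.45% of genes were. Without the single barcode that held most UMIs of the gene, a setting added after the data were seen, these ratios were 1.73 for Nt5e and 1.58 for Lrrc32. Myeloid markers made up 0.622% of UMIs in Foxp3-positive barcodes of pancreas control and 0.225% in CD4-Cre, and B cell markers 0.00341% and 0.0200%, with 3 of 3 measured B genes at least 2-fold higher in CD4-Cre (median 2.76). The 1 plasma cell gene measured was at 4.70. Pou2af1, the deleted gene, had 2 and 7 UMIs there (log2 ratio 0.92, -1.47 to 4.23), too few to show a direction. Without B and myeloid UMIs the ratio of Nt5e was 1.41, and without plasma cell UMIs 1.59.

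In Foxp3-zero barcodes Gpr83 went from 2.99 CPM (10 UMIs) to 6.87 CPM (54 UMIs) in the pancreas, a log2 ratio of 1.20 (0.21 to 2.34), with 2.01% of genes called higher and 1.30% lower. With a pseudocount of 10 CPM the ratio was 0.38, which ends the call. In the lymph node it went from 23.0 to 15.5 CPM, a log2 ratio of -0.57 (-0.90 to -0.23). Lymph node Lrrc32, with 3 and 17 UMIs, had a log2 ratio of 1.54 (-0.25 to 3.95) and was the member past 2-fold there, where 0.687% of genes were. The lower calls there took 1.79% of genes and no member. In CD8-only barcodes 0 members were 2-fold higher or lower in either tissue, where 2.39% and 0.615% of genes were higher and 2.49% and 1.92% lower. TMM library sizes moved all lymph node CD8-only ratios by 0.12. Before that shift, all 7 members with 20 UMIs were below 0 there, led by Foxp3 at -0.89 (-1.66 to -0.11) and Ikzf2 at -0.80 (-1.15 to -0.44). The median over all 9764 genes there was also below 0, at -0.11. The share of these barcodes with Foxp3 differed by -0.418 percentage points (-1.71 to 0.552), and by -0.165 (-1.08 to 0.426) after thinning. For Ikzf2 the differences were -2.05 (-4.42 to 0.0313) and -0.216 points (-1.52 to 0.787). The intervals of these share differences all include 0. In pancreas CD8-only barcodes Izumo1r was at -0.51 (-0.86 to -0.15). Within B barcodes of the pancreas, Capg, the one member with 20 UMIs, was at 116 and 135 CPM, a log2 ratio of 0.23 (0.06 to 0.39).

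**Figure D5:**
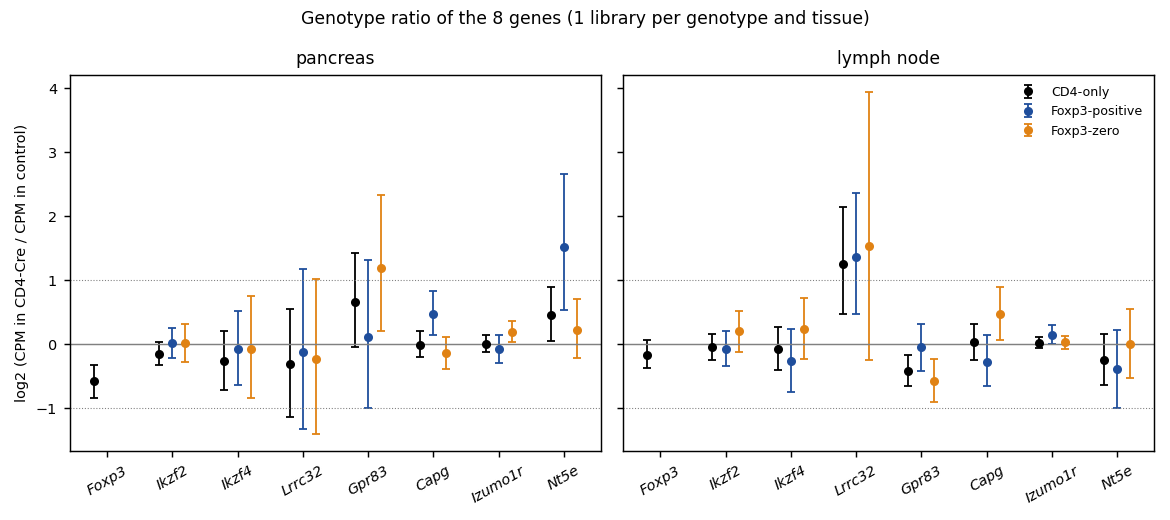
Log2 ratio of CPM, CD4-Cre over control (y axis), for the genes with at least 20 UMIs in CD4-only, Foxp3-positive and Foxp3-zero barcodes of each tissue (Foxp3 in CD4-only barcodes alone), with exact 95% intervals that cover counting error only and dotted lines at 2-fold. Most points lie near 0, and those past 2-fold are Nt5e in Foxp3-positive pancreas barcodes (1.52), Gpr83 in Foxp3-zero pancreas barcodes (1.20) and Lrrc32 in the lymph node (1.26 to 1.54).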

How the data were processed

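The data are UMI counts of 5′ single-cell libraries, 1 per combination of tissue and genotype. The authors deposited counts per gene and barcode, made with Cell Ranger and mm10 per the submitters' processing notes, and the annotation was matched by gene ID for 30934 of 31053 genes. How free RNA or doublets were treated before deposit is not given in the sources used here. Barcodes with at least 500 genes and at most 10% mitochondrial UMIs were kept, and likely doublets were removed by a score against simulated doublets, at 0.8% per 1000 barcodes listed. Gates used the UMIs of marker genes as stated with the results. Counts were summed over barcodes and divided by total UMIs (CPM), and shares of barcodes were computed before and after thinning each barcode to 1000 UMIs, which left out barcodes shallower than that. Intervals are exact binomial (Clopper-Pearson) for shares, Newcombe for differences of shares, exact Poisson for levels, and exact conditional binomial for ratios of sums, and they were checked on simulated data. The limit allowed by a count of 0 is 3 counts.

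A ratio was called at 2-fold among genes with at least 20 UMIs over both sums. The genes named are the 8 members, genes of 12 lists (101 entries) where a result turned on them, and the 10 others most like Foxp3. The lists cover other regulatory T cell genes, Foxp3 partners and regulators, TGF-beta display, the adenosine pathway, conventional helper, anergy and exhaustion, and naive and homing genes, and T, B, plasma cell, NK and myeloid markers. Members and lists were chosen with earlier results of these data known. Libraries kept 2853 to 6263 barcodes at median depths of 3591 to 4639 UMIs. Alternatives covered the filters on barcodes and genes, doublet removal, thinning, the gates, the scaling (edgeR TMM and DESeq2 size factors) and a pseudocount. Python 3.11.15, NumPy 2.4.6, SciPy 1.17.1, pandas 2.3.3, matplotlib 3.10.9, R 4.3.3, edgeR 4.0.16 and DESeq2 1.42.0 were used. Values of some single list genes are not reported here.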

Additional observations from a re-analysis of the deposited data

Results flagged for a closer look

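Before thinning, the share of Foxp3-positive barcodes with Nt5e differed between genotypes in opposite directions in the 2 tissues. It was 15.8 percentage points higher in CD4-Cre than in control in the pancreas (3.55 to 25.9) and 11.4 points lower in the lymph node (-11.4, -22.2 to -1.33). The difference between the tissues was not tested, since each value compares 1 library with 1 other. At 1000 UMIs per barcode the values were 9.93 points (-3.99 to 21.7) and 2.37 points (-10.5 to 10.8), so the lymph node direction turned and both intervals include 0. With barcodes gated after thinning they were 0 and -2.49 points. The log2 ratios of CPM were 1.52 (0.53 to 2.66) and -0.39 (-0.99 to 0.22), and the latter interval includes 0.

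Gpr83 differed in opposite directions in Foxp3-zero barcodes, with log2 ratios of 1.20 in the pancreas and -0.57 in the lymph node, CD4-Cre over control. With a pseudocount of 10 CPM these were 0.38 and -0.37. This difference was not tested either, and the pancreas value rests on 10 UMIs in control.

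Foxp3 was also counted in T cell barcodes with neither a Cd4 nor a Cd8 UMI, which no comparison used. Its share there was 4.93% (47 of 953) in pancreas control, 4.20% (54 of 1287) in pancreas CD4-Cre, 9.02% (56 of 621) in lymph node control and 13% (106 of 816) in lymph node CD4-Cre. Pancreas B barcodes had 0.110% and 0%. The median depths of the T cell barcodes were 3248, 3411, 4114 and 3746 UMIs, and at 1000 UMIs per barcode the shares were 2.43%, 2.43%, 4.72% and 6.35%. In the lymph node these shares were above those of CD4-only barcodes, and in the pancreas below them.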

How the results depend on the processing

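No paired analysis was possible because each group is 1 library and no result comes from a test. Values are given in the order pancreas control, pancreas CD4-Cre, lymph node control and lymph node CD4-Cre. Of 283 alternatives to the main comparisons, 242 stayed within the interval or within 1.5 times the count, 41 moved and 0 reversed. Of 1371 for single genes, 1190 stayed, 180 moved and 1 reversed, Hist1h1b in pancreas control at -0.15 with at least 2 Foxp3 UMIs. Ratios with 0 UMIs in a sum have no finite value and were left out of such counts. Over main values and alternatives, 416 of 416 finite log2 ratios of members, Foxp3-positive over Foxp3-zero, were above 0. Of these 402 were at least 1, the 14 others being Nt5e in pancreas control, which was 3.18 with barcodes gated after thinning. Ikzf4, Lrrc32 and Gpr83 in pancreas control and Lrrc32 in lymph node control had finite ratios in only 13 of 14 alternatives. That all finite ratios were above 0 thus does not cover these cases.

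The share of CD4-only barcodes with Foxp3 follows depth, with 5.49%, 4.24%, 4.85% and 5.36% at 2000 UMIs, 7.45%, 6.57%, 7.45% and 7.76% without thinning, and 1.10%, 0.764%, 0.863% and 1.0% with at least 2 Foxp3 UMIs. Gating after thinning left 3 (pancreas control), 4 (pancreas CD4-Cre) and 3 (lymph node control) members past 2-fold, 471 and 521 genes past it in the 2 control libraries, a joint ratio of Izumo1r and Nt5e of 5.67 in lymph node CD4-Cre, and a genotype ratio of Foxp3 of -0.02 in the pancreas, which was -0.32 with equal weight for each barcode. With Izumo1r and Nt5e thinned in barcodes that were Foxp3-zero before thinning, a choice made after seeing the data, the joint ratio was 4.59 and 5.0 in the lymph node libraries. The pancreas ratio of Pou2af1 was -3.75 without B or myeloid UMIs and -2.97 without plasma cell UMIs, the latter chosen after seeing the data, and the lymph node ratio was -0.71 with a pseudocount of 10 CPM.

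Genes past 2-fold in Foxp3-positive barcodes numbered 648 and 661 in the pancreas with TMM and 651 and 661 with DESeq2 size factors. They numbered 494, 321, 272 and 235 with the pseudocount, 559, 680, 456 and 507 with at least 50 UMIs, and 2186, 2163, 1847 and 1814 with at least 1 UMI in both sums. With 1 library per group, differences between mice or preparations cannot be told apart from genotype, and depth limits what a barcode without a UMI can show.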
